A study of Mus musculus with 20 samples.

Results

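Mouse kidney cells that carry Sca-1, the surface protein encoded by Ly6a, were compared after 21 days of culture with roxadustat and after 21 days of culture as control. These are the 4 roxadustat and the 4 control libraries that the labels place at day 21, 8 of the 20 libraries of the series, and the description runs across all genes. The cells were primary cells from digested mouse kidney, enriched for Sca-1 with magnetic beads and labelled as resembling mesenchymal stem cells. Both groups were grown in a medium for mesenchymal stem cells with serum and antibiotics at 37 degrees, 20% O2 and 5% CO2. The design text places the roxadustat cells in culture medium that contained the drug, at a concentration that the sources used here do not give. The treatment protocol, which is worded alike for every library, describes 7 days of intraperitoneal roxadustat injection at 33 mg/kg. Whether the cultured cells came from injected mice is not stated, nor which strain, sex or age the mice had or whether replicates are separate animals or cultures. The p-values come from a fit of all 20 libraries, in which the groups share their spread. They therefore measure the spread between replicate libraries, those of the other days included, and this spread may be technical.

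Roxadustat blocks the prolyl hydroxylases that use oxygen and 2-oxoglutarate to mark the alpha subunits of hypoxia-inducible factor (HIF) for destruction. With these enzymes blocked, HIF accumulates in air, pairs with its partner ARNT and binds short RCGTG motifs near genes of glucose use, lactate export, blood vessel growth and oxygen sensing. In the kidney, interstitial fibroblast-like cells near the tubules make erythropoietin under HIF-2, while the tubule epithelium responds mainly through HIF-1. Cultures started from kidney digests can hold fibroblasts, pericytes, tubule cells, macrophages and endothelial cells side by side. In bulk RNA, fewer cells of a type and less RNA per cell cannot be told apart, and this holds for every cell type gene described here.

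Totals, in units of 1000000 counts, were 12.82, 15.17, 8.502 and 17.59 in the roxadustat libraries and 17.66, 17.91, 13.68 and 15.79 in the control libraries. Levels are counts per 1000000 scaled by TMM (CPM), called means an adjusted p under 0.05 in edgeR's quasi-likelihood test, and differences are log2 fold changes ± SE, roxadustat over control. Among 18731 genes tested, 62.9% were called. With roxadustat 5616 (30%) were higher and 6165 (32.9%) lower, of which 2916 (15.6%) and 2362 (12.6%) by at least 2-fold, and 981 were at least 8-fold higher and 543 at least 8-fold lower. The 4 and 4 libraries did not overlap for 56.2% of genes, so called members of a list are to be read against these shares. The split depends on scaling. TMM factors were 1.147 to 1.189 in roxadustat and 0.9022 to 0.9307 in control libraries, and scaling by library size alone moved the median of all genes by 0.34 and gave 9372 higher and 3549 lower. The control libraries formed 2 close pairs, replicates 1 and 2 and replicates 3 and 4, and with each pair summed to 1 unit the counts were 5170 higher and 5954 lower. Roxadustat replicate 2 stood apart in its mitochondrial share, 0.553% of counts against 1.11 to 1.22% in the other roxadustat libraries and 2 to 2.41% in the control libraries. Epo, the erythropoietin gene, had 0 counts in all 8 libraries, which allows up to 0.0475 CPM with roxadustat, against 0.0503 CPM in the control cells at 3 counts per group, for counting error only.

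The label was set against marker genes. All 11 markers of mesenchymal stromal cells had counts in both groups, and their summed level was 4284 to 4409 CPM in roxadustat and 4566 to 4825 CPM in control libraries, with 4 markers higher and 6 lower. The 8 markers of kidney epithelium summed to 434 to 481 CPM in roxadustat and 16.5 to 21.2 CPM in control libraries, and all 8 were called higher. The 6 proximal tubule markers summed to 207 to 215 CPM in roxadustat and 6.63 to 9.58 CPM in control libraries, with 3 of the 6 called higher and Slc22a6 at 0 in all. The 6 macrophage markers ran the other way, at 13.5 to 15 CPM in roxadustat and 253 to 295 CPM in control libraries, and all 6 were lower. The 5 smooth muscle and pericyte markers reached 863 to 943 CPM in roxadustat and 2547 to 2933 CPM in control libraries. The 4 endothelial markers stayed under 8 CPM in sum, at 2.11 to 3.33 CPM in roxadustat and 6.78 to 7.67 CPM in control libraries. Red cell markers had no counts. The sums of stromal, epithelial, proximal tubule, macrophage, smooth muscle and endothelial markers thus did not overlap between the groups. The stromal sum was close between the groups, but it joins markers that moved far in opposite directions, such as Pdgfra and Nt5e, described below. The part of these cell types in the results was not tested.

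The genes of the oxygen sensor itself moved in both directions. Hif1a, the HIF-1 alpha subunit (chromosome 12, 73901375 to 73947530, GRCm38), was at 117, 131, 122 and 122 CPM in the roxadustat libraries, against 422, 416, 383 and 402 CPM in the control libraries. All roxadustat libraries lay below all control libraries, and Hif1a was lower by 1.72 ± 0.05 on the log2 scale (adjusted p = 5.74e-21). Epas1, the HIF-2 alpha subunit, was at 26.5, 18.7, 18.5 and 20.3 CPM in the roxadustat libraries, against 70.4, 75.3, 121 and 119 CPM in the control libraries. The control values split by the library pairs, and the groups did not overlap (log2 fold change -2.19 ± 0.18, adjusted p = 1.09e-08). Arnt, the shared partner subunit, averaged 51 ± 3.61 CPM with roxadustat, against 100 ± 8 CPM in the control cells (SD, n = 4 each, adjusted p = 3.23e-13). Hif3a, which lacks much of the activating part, was at 1.5 ± 0.513 CPM with roxadustat, against 1.45 ± 0.531 CPM in the control cells and was not called.

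The hydroxylases were ordered differently. Egln3, the prolyl hydroxylase PHD3, was at 60, 64.3, 59.8 and 58.4 CPM in the roxadustat libraries, against 1.29, 0.54, 0.878 and 1.41 CPM in the control libraries, a log2 fold change of 5.88 ± 0.13 (adjusted p = 3.76e-24). Egln1 (PHD2), the main oxygen sensor of most cells and itself a HIF target, was 5.16-fold higher at 239 ± 10.2 CPM with roxadustat, against 46.3 ± 0.737 CPM in the control cells (adjusted p = 3.39e-24). Egln2 (PHD1), which is not induced by hypoxia in most cells, was 1.62-fold lower, at 32.3 ± 2.26 CPM with roxadustat, against 52.5 ± 2.15 CPM in the control cells (adjusted p = 3.46e-09). The 3 paralogs that the drug blocks therefore stood at different distances from the control level. Hif1an, the asparagine hydroxylase FIH, was 1.26-fold lower (42.4 ± 2.62 CPM with roxadustat, against 53.5 ± 4.07 CPM in the control cells), but its difference was 0.01 with library size as the only scaling (adjusted p = 0.841). Vhl, the ubiquitin ligase subunit that binds hydroxylated HIF, was at 37.7 ± 1.58 CPM with roxadustat, against 34.9 ± 2.81 CPM in the control cells and was not called (adjusted p = 0.173). Cited2, which competes with HIF for its coactivator, was 2.62-fold and Siah2, a ligase that degrades prolyl hydroxylases, 2.12-fold higher.

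Of 32 HIF target genes outside glycolysis, 31 were higher (96.9%, against 30% of all genes) and 1 was lower, with a median log2 fold change of 2.23. The lactate exporter gene Slc16a3 (chromosome 11, 120948480 to 120960868) was at 333, 336, 332 and 339 CPM in the roxadustat libraries, against 1.53, 2.64, 1.76 and 2.81 CPM in the control libraries. The roxadustat values lay within a narrow band far above every control value (7.25 ± 0.10, adjusted p = 1.51e-28). Mgarp, a mitochondrial protein (chromosome 3, 51388412 to 51396738), was at 49.3, 52.4, 52.3 and 54.2 CPM in the roxadustat libraries, against 0.307, 0.42, 0.24 and 0.141 CPM in the control libraries. It was 178-fold higher (adjusted p = 2.39e-25). Ak4, a mitochondrial adenylate kinase, was 108-fold higher, with 157 ± 4.65 CPM with roxadustat, against 1.44 ± 0.137 CPM in the control cells. Pdk1, a kinase that inhibits pyruvate dehydrogenase, lies on chromosome 2 (71873224 to 71903858). Its level was 226, 260, 253 and 248 CPM in the roxadustat libraries, against 16, 19.1, 15.2 and 16.8 CPM in the control libraries (3.87 ± 0.07, adjusted p = 1.45e-25). Nt5e, the ectoenzyme CD73 that makes adenosine and a mesenchymal stromal marker (chromosome 9, 88327197 to 88372092), was at 388, 431, 419 and 408 CPM in the roxadustat libraries, against 14.7, 14.2, 12.8 and 13.6 CPM in the control libraries (4.89 ± 0.08, adjusted p = 4.27e-27).

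Vegfa, the vascular growth factor, was 5.23-fold, Fam162a, a mitochondrial protein that shares 19.8% of its exon bases with Wdr5b, 6.72-fold, and Ndufa4l2, an inhibitory relative of a complex IV subunit, 24.1-fold higher. Car9, a membrane carbonic anhydrase, was low in both groups, with 8.37, 7.83, 7.46 and 8.75 CPM in the roxadustat libraries and 1.6, 2.28, 1.92 and 2.46 CPM in the control libraries (3.94-fold). Hmox1, heme oxygenase, was at 1147, 813, 1150 and 1211 CPM in the roxadustat libraries and 283, 267, 234 and 241 CPM in the control libraries, with roxadustat replicate 2 the lowest of its group. The lower member was Cxcr4, the receptor of Cxcl12, with 3 counts over the roxadustat and 50 counts over the control libraries (adjusted p = 2.5e-06). Outside the list, Stc1, the hormone stanniocalcin, had 640 counts over the roxadustat and 2 over the control libraries.

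**Figure D1:**
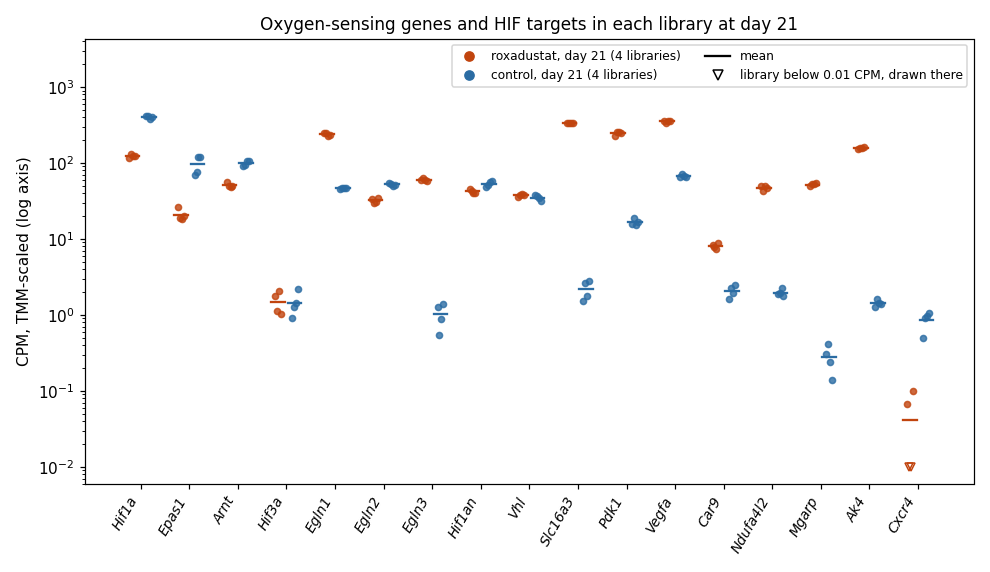
CPM on a log axis of 9 oxygen-sensing genes and 8 HIF targets in each of the 4 roxadustat and 4 control libraries at day 21, with bars at the means and open triangles for libraries below 0.01 CPM. Hif1a, Epas1, Arnt and Egln2 lie lower in roxadustat libraries, Egln1, Egln3 and the HIF targets other than Cxcr4 lie higher, and Hif3a and Vhl overlap.

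Promoters from RefSeq (GRCm38.p6, 250 bases before to 50 after the start) were searched on both strands for ACGTG and GCGTG, the core letters of the HIF motif. Only the first listed promoter of each gene was searched. They were found in 18 of the 23 HIF target genes outside glycolysis that had a promoter in the table (78.3%) and in 16 of 25 glycolysis genes (64%), against 7396 of 12402 tested genes (59.6%). Vegfa was among the 5 HIF targets without a match in this window. Of these 5, Vegfa, Mxi1 and Vldlr had 2, 3 and 2 listed promoters, so their other promoters were not searched. The 4 promoters shown belong to the HIF targets with the smallest p that held a match, with the matches in capitals on the gene's strand, 5′ to 3′, and CACGT marking ACGTG on the other strand. They lie at chr11:120948817-120949116 (+), chr9:88327359-88327658 (+), chr2:71872974-71873273 (+) and chr3:51396498-51396797 (−). The starts are those of RefSeq and differ from the gene coordinates given above for Slc16a3, Nt5e and Mgarp, whose RefSeq starts lie inside those coordinates. Relative to the RefSeq starts, Slc16a3 holds ACGTG at 2 places close to its start, Pdk1 GCGTG at 2 places, and Nt5e and Mgarp 1 match each farther upstream.
Slc16a3: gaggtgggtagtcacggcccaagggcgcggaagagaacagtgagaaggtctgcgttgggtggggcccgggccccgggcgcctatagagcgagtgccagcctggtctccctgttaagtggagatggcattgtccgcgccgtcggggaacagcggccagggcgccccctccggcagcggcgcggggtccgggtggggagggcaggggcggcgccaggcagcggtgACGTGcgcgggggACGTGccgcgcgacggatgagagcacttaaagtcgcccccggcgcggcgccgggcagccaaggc
Nt5e: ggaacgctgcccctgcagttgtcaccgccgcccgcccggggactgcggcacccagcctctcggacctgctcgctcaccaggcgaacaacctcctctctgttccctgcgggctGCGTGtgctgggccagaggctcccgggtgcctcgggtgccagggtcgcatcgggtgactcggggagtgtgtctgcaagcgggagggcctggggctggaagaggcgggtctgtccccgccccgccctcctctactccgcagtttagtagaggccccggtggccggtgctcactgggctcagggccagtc
Pdk1: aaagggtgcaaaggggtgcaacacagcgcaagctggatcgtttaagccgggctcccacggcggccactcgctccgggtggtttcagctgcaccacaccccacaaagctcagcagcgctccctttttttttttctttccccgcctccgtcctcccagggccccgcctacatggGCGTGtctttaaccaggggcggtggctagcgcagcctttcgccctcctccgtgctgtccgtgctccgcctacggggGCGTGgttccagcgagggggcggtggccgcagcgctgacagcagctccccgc
Mgarp: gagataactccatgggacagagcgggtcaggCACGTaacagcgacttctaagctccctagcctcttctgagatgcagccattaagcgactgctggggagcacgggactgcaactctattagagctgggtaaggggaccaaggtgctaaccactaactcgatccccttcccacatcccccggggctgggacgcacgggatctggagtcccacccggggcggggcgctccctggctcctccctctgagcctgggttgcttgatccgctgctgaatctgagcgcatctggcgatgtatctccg

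Glucose uptake and glycolysis genes were mostly higher, with 20 of 28 genes higher (71.4%, against 30%), 4 lower and a median log2 fold change of 1.91. Slc2a1, the glucose transporter GLUT1, was at 267, 246, 261 and 264 CPM in the roxadustat libraries, against 30.3, 29.1, 32.3 and 37.2 CPM in the control libraries (8.06-fold, adjusted p = 6.19e-25). Aldoa, Tpi1 and Ldha, enzymes of the middle and the end of the pathway, were 2.91-, 5.99- and 4.6-fold higher. These 3 have processed pseudogenes, and reads shared with those could not be assigned with certainty. Isoforms of neuronal or muscle type were among the 4 lower members. Eno2, neuronal enolase, was 4.39-fold lower at 12.7 ± 1.29 CPM with roxadustat, against 56.2 ± 3.76 CPM in the control cells. Pfkfb4, a regulator of phosphofructokinase, was 2.01-fold lower, and Slc2a4, the insulin-dependent transporter GLUT4, had 1 count over the roxadustat and 14 over the control libraries.

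Glycogen genes were split, with 6 of 14 higher (42.9%, against 30% of all genes) and 4 lower (28.6%, against 32.9%). Pygl, the liver form of glycogen phosphorylase, was at 69.5, 73.3, 68 and 67.4 CPM in the roxadustat libraries, against 3.38, 3.84, 3.11 and 2.04 CPM in the control libraries (22.2-fold, adjusted p = 2.01e-23), while the brain form Pygb was 2.46-fold lower at 57.8 ± 1.35 CPM with roxadustat, against 142 ± 9.84 CPM in the control cells. Gys1, glycogen synthase, was 3.95-fold, the branching enzyme Gbe1 5.02-fold and phosphoglucomutase Pgm1 3.68-fold higher. Gyg, glycogenin, the primer of glycogen, was 3.25-fold lower. The synthase, brancher and liver phosphorylase were thus higher together, and the primer was lower.

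All 7 mitochondrially encoded respiratory chain genes with enough counts were lower, also without roxadustat replicate 2, and 6 of them with scaling by library size alone. The other 6 of the 13 list members could not be tested. Of these, mt-Nd3 had at most 1 count in any library, and mt-Nd4l, mt-Co2, mt-Co3, mt-Atp6 and mt-Atp8 had 0 counts in all libraries. Why they lack counts was not tested, and the mitochondrial shares given here leave these genes out. mt-Co1, the catalytic subunit of complex IV, was at 1394, 1463, 1578 and 1545 CPM in the roxadustat libraries, against 4179, 3835, 3301 and 3394 CPM in the control libraries (-1.30 ± 0.08, adjusted p = 5.53e-14). Among RNAs of the mitochondrial ribosome, mt-Rnr2 was at 6559, 1787, 5449 and 5888 CPM in the roxadustat libraries, against 16420, 14640, 13210 and 17260 CPM in the control libraries, and roxadustat replicate 2 was far below its group. Of 36 nuclear respiratory chain genes 23 were lower and 3 higher, but 1 was lower and 13 higher with scaling by library size alone, so no direction is given for them. Without control replicate 4, 1 was higher. Single genes of complex IV moved in both directions. Cox4i2, the low-oxygen isoform of subunit 4, was at 5.24, 3.66, 5.77 and 5.11 CPM in the roxadustat libraries, against 0.123, 0.3, 0.399 and 0.281 CPM in the control libraries (17.8-fold). Ndufa4, the subunit whose relative Ndufa4l2 was higher, was 2.16-fold lower. Cox4i2 and Ndufa4 both kept their calls with library size alone. Cox4i1, the common isoform, was 1.38-fold lower with TMM and lost its call with library size alone. The pyruvate dehydrogenase and tricarboxylic acid cycle list had 9 higher (31%, against 30%) and 12 lower (41.4%, against 32.9%) of 29. With library size alone 18 were higher and 4 lower. Besides Pdk1, Pdk4 was 3.2-fold higher at 170 ± 6.71 CPM with roxadustat, against 53.2 ± 3.12 CPM in the control cells.

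Other enzymes that use oxygen and 2-oxoglutarate were also measured. Of 20 such genes of chromatin and nucleic acids 11 were higher and 3 lower, and 19 and 0 with scaling by library size alone, with a median of 0.24. The histone demethylase gene Kdm4b was 2.01-fold and the RNA demethylase gene Alkbh5 1.85-fold higher. Tet3, a DNA demethylase, averaged 45.6 ± 5 CPM with roxadustat, against 67.5 ± 18.4 CPM in the control cells, with overlapping libraries, and lost its call with library size alone. The collagen prolyl hydroxylase subunits P4ha1 and P4ha2 were 3.58- and 2.44-fold higher, with P4ha1 at 1234 ± 54 CPM with roxadustat, against 344 ± 24 CPM in the control cells.

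The tubule epithelium gave some of the widest gaps between the groups. Of 25 kidney epithelial transcription factors 21 were higher (84%, against 30%) and 2 lower, with a median of 2.94. Hnf4a, the master factor of the proximal tubule (chromosome 2, 163506808 to 163572910), was at 7.21, 7.61, 8.05 and 7.92 CPM in the roxadustat libraries, against 0 counts in all 4 control libraries, at least 153-fold higher against 3 counts over the group. Pax8, a kidney lineage factor, was 16.8-fold higher at 157 ± 10 CPM with roxadustat, against 9.39 ± 0.911 CPM in the control cells. Tfcp2l1, a factor of the distal nephron and collecting duct, was 12.1-fold, the epithelial Ets factor Ehf 89.3-fold and Sim1 7.68-fold higher. Pax2 was at 28.5, 16, 22.6 and 22.8 CPM in the roxadustat libraries, against 1.6, 1.08, 2.48 and 2.95 CPM in the control libraries. The 2 lower members were Tfap2a, with 3 counts over the roxadustat and 18 over the control libraries, and Wt1, a factor of podocytes and of the mesothelium, which was 1.4-fold lower and lost its call with library size alone.

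Junction genes followed the same pattern, with 28 of 30 higher, none lower and a median of 3.21. Cdh16, the kidney cadherin, was at 114, 117, 118 and 111 CPM in the roxadustat libraries, against 2.89, 3.3, 2.71 and 2.39 CPM in the control libraries (5.33 ± 0.08, adjusted p = 1.11e-27). Krt8, a keratin of simple epithelia, was 145-fold, Cldn2, the leaky claudin of the proximal tubule, 28.5-fold and Spint1, an inhibitor of surface proteases, 51.1-fold higher. Cdh6, the cadherin of the early proximal tubule, was 8.32-fold higher at 405 ± 28.9 CPM with roxadustat, against 48.8 ± 4.8 CPM in the control cells. Cdh1 (E-cadherin) stayed low, with 132 counts over the roxadustat and 3 over the control libraries, and Epcam had 182 and 1.

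Mature proximal tubule genes were less uniform. Of 31 tested, 15 were higher (48.4%) and 1 lower. The median was 1.5, and 0.92 with the 7 genes that lacked counts in a group set at their bound. The endocytic receptor gene Lrp2 was 42.2-fold, its partner Cubn 8.26-fold, the water channel gene Aqp1 25.8-fold and Ggt1, a brush border peptidase of glutathione, 166-fold higher. Cyp4b1, a fatty acid hydroxylase, was at 37.9, 41, 39.4 and 44.2 CPM in the roxadustat libraries, against 0.0614, 0.3, 0.319 and 0.211 CPM in the control libraries. Slc6a18, an amino acid transporter of the late proximal tubule outside the list, was at 280, 329, 274 and 291 CPM in the roxadustat libraries, against 1.1, 0.961, 1.52 and 0.984 CPM in the control libraries (8.02 ± 0.11, adjusted p = 9.73e-29). The androgen-regulated tubule gene Kap reached 14.5 ± 0.988 CPM in roxadustat cells and 4 counts over the control libraries. Slc34a1, the main phosphate transporter, had 3 and 2 counts. Anpep, a brush border peptidase that stromal cells also carry, was the lower member at 3.95, 1.89, 2.48 and 3.39 CPM in the roxadustat libraries, against 26.8, 21.9, 40.1 and 43.7 CPM in the control libraries.

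Segments beyond the proximal tubule gave few calls, 5 higher and 1 lower of 24, with a median of 1.21 that became -0.08 with the 8 genes lacking counts in a group at their bound. Without control replicate 2, 3 were higher. Trpm6, a magnesium channel of the distal tubule, was 25.1-fold and the kinase gene Wnk4 4.41-fold higher. Atp6v0d2, a proton pump subunit that macrophages also use, was 3.34-fold lower. Umod, uromodulin of the loop of Henle, had 2 counts over the roxadustat and 1 over the control libraries.

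Cyp24a1, the enzyme that breaks down active vitamin D (chromosome 2, 170482708 to 170497145), was at 92.8, 76.6, 94.2 and 96.8 CPM in the roxadustat libraries, against 0.184, 0.42, 0.319 and 0.0703 CPM in the control libraries (8.44 ± 0.49, adjusted p = 3.18e-10). Every roxadustat library lay far above every control library. Crisp1, a secreted protein best known from the epididymis, had 2585 counts over the roxadustat and 1 over the control libraries. Lepr, the leptin receptor, belongs to the list of mesenchymal stromal cell markers. It was at 27.1, 27.8, 31.1 and 26.9 CPM in the roxadustat libraries, against 0.123, 0.06, 0.16 and 0.211 CPM in the control libraries.

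Genes of tubule injury and failed repair were mostly higher, 18 of 24 with 5 lower and a median of 2.45. Spp1, osteopontin (chromosome 5, 104435118 to 104441050), was at 19080, 22600, 19390 and 21260 CPM in the roxadustat libraries, against 780, 740, 608 and 650 CPM in the control libraries (29.6-fold, adjusted p = 3.78e-26), and 18.8% of its exon bases overlap another gene. Per kb of exon it stood at 12490 CPM with roxadustat, against 421 CPM in the control cells. Havcr1, the injury receptor KIM-1, was at 514, 549, 557 and 563 CPM in the roxadustat libraries, against 10, 10, 7.67 and 9.34 CPM in the control libraries (5.87 ± 0.24, adjusted p = 3.45e-12). Prom1, the surface protein CD133 of regenerating tubule cells, was 32.8-fold, Clu, the chaperone clusterin, 23.3-fold, Cd24a 25.8-fold and Dcdc2a 39.8-fold higher. Sox9, a factor of tubule repair, was 5.05-fold higher at 29 ± 3.92 CPM with roxadustat, against 5.79 ± 1.25 CPM in the control cells. Among the 5 lower members were Vcam1 (3.02-fold), Anxa1 (2.83-fold) and Timp1 (2.57-fold), an adhesion molecule, a phospholipid-binding protein and a protease inhibitor that stromal cells also make.

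**Figure D2:**
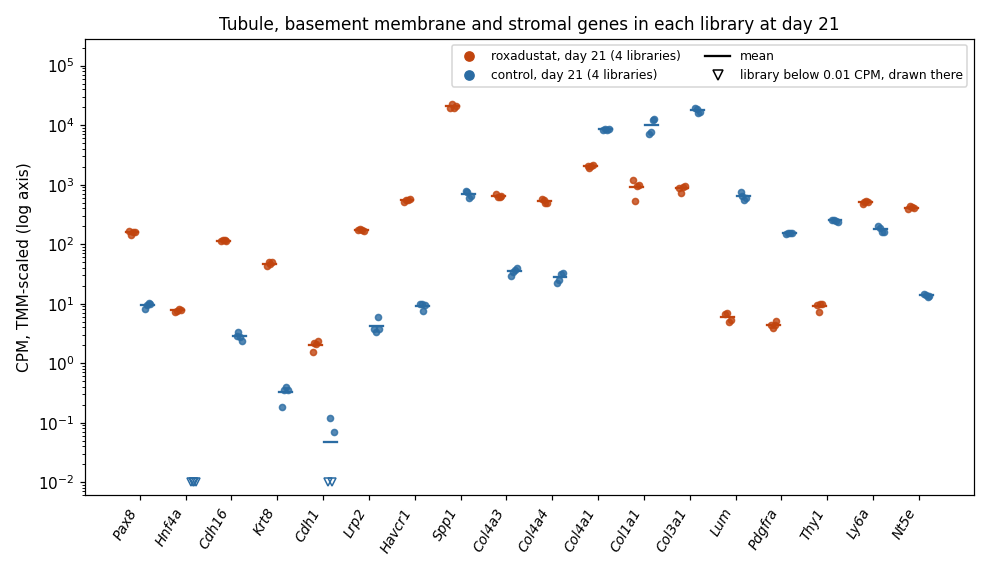
CPM on a log axis of 18 tubule, basement membrane and stromal genes in each of the 4 roxadustat and 4 control libraries at day 21, with bars at the means and open triangles for libraries below 0.01 CPM. Pax8 through Col4a4, Ly6a and Nt5e lie higher in roxadustat libraries, and Col4a1 through Thy1 lie lower, with no overlap for any of the 18 genes.

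Fibroblast genes were lower than in the control cells as a list, with 23 of 30 lower (76.7%, against 32.9%), 4 higher and a median of -2.12. Lum, the collagen-binding proteoglycan lumican (chromosome 10, 97565128 to 97572703), was at 6.6, 7, 4.87 and 5.36 CPM in the roxadustat libraries, against 740, 645, 559 and 598 CPM in the control libraries (-6.72 ± 0.16, adjusted p = 4.16e-17). Dpt, dermatopontin, was at 0.71 ± 0.311 CPM with roxadustat, against 92.2 ± 7.21 CPM in the control cells. Pdgfra and Pdgfrb, receptors of stromal cells, were 34.4- and 6.18-fold lower, Thy1 27.9-fold and the mesenchymal factor Prrx1 6.25-fold. The 4 higher members were Ly6a, Nt5e, Cd34 and Foxd1. Ly6a, which encodes the Sca-1 used in the sort, was at 469, 515, 528 and 511 CPM in the roxadustat libraries, against 199, 189, 163 and 161 CPM in the control libraries. Cd34, a surface sialomucin of progenitor and stromal cells, was 22.8-fold higher, and Foxd1, the factor of the renal stromal lineage, was 1.58-fold higher at 2.95 ± 0.495 CPM with roxadustat, against 1.87 ± 0.261 CPM in the control cells. Vim, vimentin, was 1.36-fold lower and lost its call with library size alone.

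Of 26 collagen chains 21 were lower and 5 higher, with a median of -2.65, and their summed level was 10700 to 12590 CPM in roxadustat and 83440 to 89120 CPM in control libraries. Col3a1, a fibrillar chain, was at 886, 720, 929 and 944 CPM in the roxadustat libraries, against 19730, 18860, 16000 and 16820 CPM in the control libraries (-4.36 ± 0.16, adjusted p = 3.66e-14). Col1a1 was at 1214, 522, 953 and 968 CPM in the roxadustat libraries, against 7099, 7782, 12340 and 12480 CPM in the control libraries, so that both the second roxadustat library and the control pairs stood apart, yet the groups did not overlap. Col6a3, a chain of beaded microfibrils, was 95.4-fold and Col11a1 35-fold lower.

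The chains of type IV collagen, the network of basement membranes, parted. Col4a3 (chromosome 1, 82586921 to 82722059) was at 690, 610, 631 and 644 CPM in the roxadustat libraries, against 29.6, 33.8, 37.5 and 39.4 CPM in the control libraries (4.20 ± 0.08, adjusted p = 1.54e-24). Its head-to-head neighbour Col4a4 was at 570, 560, 500 and 499 CPM in the roxadustat libraries, against 22.7, 25.4, 31.9 and 32.5 CPM in the control libraries (4.25 ± 0.09). For both genes the groups were far apart. Col4a1, a chain of the common network, was at 2084, 1923, 2065 and 2101 CPM in the roxadustat libraries, against 8349, 8513, 8449 and 8644 CPM in the control libraries (-2.05 ± 0.06, adjusted p = 3.16e-21), and its neighbour Col4a2 was 4.6-fold lower. Col4a5, which joins Col4a3 and Col4a4 in the network of mature glomeruli and tubules, was 1.78-fold lower at 508 ± 9.33 CPM with roxadustat, against 905 ± 21.2 CPM in the control cells. Per kb of exon, the mean levels in roxadustat cells were 64.6 CPM for Col4a3, 50.2 for Col4a4 and 75.7 for Col4a5, and in control cells 3.52, 2.65 and 135. The 3 chains were thus at similar levels per kb in roxadustat cells, and in control cells Col4a5 was far above the other 2. Col4a1 stood at 274 CPM per kb in roxadustat and 1137 CPM per kb in control cells. Col18a1, a basement membrane collagen, was 2.71-fold higher.

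Laminins and integrins parted too, with 16 higher (61.5%, against 30% of all genes) and 10 lower (38.5%, against 32.9%) of 26. Lama1, the laminin chain of early and tubular basement membranes, was at 39.7, 41.3, 36.1 and 39.3 CPM in the roxadustat libraries, against 2.33, 1.8, 2.79 and 3.09 CPM in the control libraries (15.8-fold). Lamb2 and Lamc1, chains of most adult laminins, were 3.7- and 4.61-fold lower. Itga3, the laminin receptor of tubule cells and podocytes, was 20.3-fold higher at 552 ± 33.8 CPM with roxadustat, against 27.2 ± 3.7 CPM in the control cells, and Itga6 was 4.38-fold higher. Itgb6, an epithelial integrin subunit that activates TGF-beta, had 709 counts over the roxadustat and 2 over the control libraries.

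**Figure D3:**
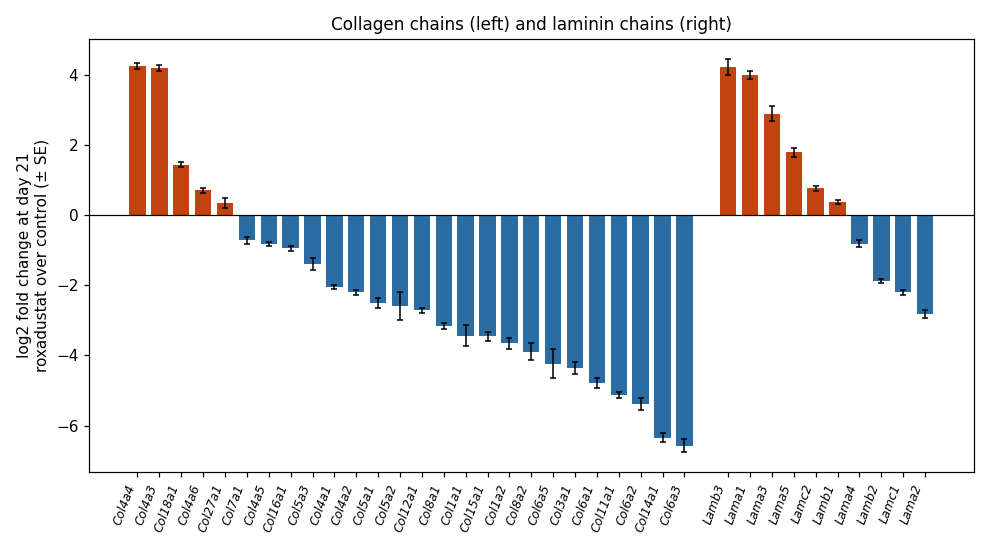
Log2 fold changes ± SE at day 21, roxadustat over control, for 26 collagen chains on the left and 10 laminin chains on the right, each ordered by size, with red bars for called higher and blue bars for called lower. Col4a4 (4.25) and Col4a3 (4.20) lead the 5 higher collagen chains, Col6a3 (-6.58) is the lowest, and the laminin chains divide into 6 higher and 4 lower.

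Of 37 matrix glycoproteins, proteoglycans and elastic fibre genes 29 were lower, 5 higher and 3 not called, with a median of -2.43. Ccn3, a matricellular protein, was at 11.1, 12.2, 9.84 and 11.9 CPM in the roxadustat libraries, against 948, 937, 866 and 890 CPM in the control libraries (79.9-fold lower, adjusted p = 3.1e-25). Dcn, decorin, was 73.2-fold, Prelp 114-fold, Sparc, a collagen-binding protein of the matrix, 5.38-fold and Ltbp1, which stores TGF-beta, 10.3-fold lower. In the other direction, Ccn2, connective tissue growth factor, was at 3087, 2914, 3107 and 3129 CPM in the roxadustat libraries, against 773, 795, 749 and 767 CPM in the control libraries (3.97-fold), and 23.2% of its exon bases overlap another gene. Tnc, tenascin-C, was 1.62-fold higher. Fn1, fibronectin, was at 12200, 8449, 10500 and 10540 CPM in the roxadustat libraries, against 8314, 8699, 12370 and 12370 CPM in the control libraries, which overlapped, and it was not called (log2 fold change -0.00 ± 0.21).

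Matrix proteases, inhibitors and crosslinkers had 24 of 38 lower and 10 higher. Mmp14, the membrane collagenase, was 6.41-fold lower at 179 ± 10.4 CPM with roxadustat, against 1148 ± 13.9 CPM in the control cells. Mmp3, stromelysin, was 126-fold, Adamts2, which trims procollagen, 20.9-fold and Mmp23 11.1-fold lower. The higher members included P4ha1 and P4ha2, described among the hydroxylases. Cemip, which breaks down hyaluronan, was at 14.4, 13.2, 15.7 and 14 CPM in the roxadustat libraries, against 184, 189, 200 and 204 CPM in the control libraries.

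Smooth muscle and pericyte genes were lower for 16 of 24 and higher for 5, with a median of -0.95. Acta2, smooth muscle actin of myofibroblasts, was at 608, 691, 649 and 675 CPM in the roxadustat libraries, against 2415, 2336, 2067 and 2033 CPM in the control libraries (-1.75 ± 0.14, adjusted p = 2.99e-09). Myh11, smooth muscle myosin, was 17.2-fold and Actg2 13.4-fold lower, and Smtn, smoothelin, was 2.82-fold higher. Of 19 mesenchymal stromal cell markers 7 were higher (36.8%, against 30% of all genes) and 10 lower (52.6%, against 32.9%). The higher members included Nt5e, Lepr and Ly6a, whose values are given in other paragraphs. Cxcl12, the stromal chemokine that holds progenitors in their niche, was at 9.05, 7.38, 7.85 and 9 CPM in the roxadustat libraries, against 843, 817, 851 and 906 CPM in the control libraries (102-fold lower), while Nes, the intermediate filament nestin, was 5.09-fold higher. Among bone, cartilage and fat genes, Lpl, lipoprotein lipase, was 13.2-fold and Pparg, the fat cell regulator, 3.81-fold lower, and Sox6, a cartilage factor, was 19.6-fold higher.

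Macrophage and dendritic cell genes were lower for 21 of 24 (87.5%, against 32.9%), with a median of -3.21 and a summed level of 39.4 to 42.9 CPM in roxadustat and 386 to 442 CPM in control libraries. Lyz2, lysozyme (chromosome 10, 117277331 to 117282321), was at 4.7, 5.44, 4.87 and 4.67 CPM in the roxadustat libraries, against 225, 223, 187 and 192 CPM in the control libraries (41.9-fold lower, adjusted p = 7.12e-27). C1qa, a complement subunit made by macrophages, was at 1.05 ± 0.362 CPM with roxadustat, against 25.4 ± 2.88 CPM in the control cells, Adgre1, a macrophage surface receptor, was 25.6-fold and Mpeg1 14.8-fold lower. Cd14, a receptor for bacterial lipid that epithelial cells can also make, was the exception at 3.52-fold higher. Endothelial genes were scarce. Pecam1 and Cdh5 had 14 and 14 counts over the roxadustat and 4 and 4 over the control libraries and were not called. Emcn, endomucin, was 15-fold and Kdr, the main VEGF receptor, 4.93-fold lower, and Flt4, the VEGF-C receptor, was 9.69-fold higher. Podxl, a sialomucin of podocytes and endothelium, was 10.7-fold higher.

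Interferon-response genes were lower for 25 of 26 (96.2%, against 32.9%) and higher for none, with a median of -2.29 and a summed level of 178 to 183 CPM in roxadustat and 579 to 635 CPM in control libraries. Stat2, a signal transducer of type I interferon, was at 15.3, 11.8, 13.3 and 13.8 CPM in the roxadustat libraries, against 64.8, 66.6, 66.4 and 68.8 CPM in the control libraries (-2.30 ± 0.08, adjusted p = 2.51e-20). Its partner Irf9 was 2.94-fold, Oasl2, an antiviral protein, 22.4-fold, Isg15, a ubiquitin-like modifier, 17.1-fold, Bst2, tetherin, 6.36-fold and Ddx58, the RNA sensor RIG-I, 2.65-fold lower. The member without a call was Cxcl10, with 17 counts over the roxadustat and 19 over the control libraries. The macrophage genes moved the same way, and their part in the interferon list was not tested.

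Antigen presentation genes were split, 3 higher (16.7%, against 30% of all genes) and 9 lower (50%, against 32.9%) of 18. With library size alone 5 were higher and 9 lower. B2m, the light chain of class I molecules, was at 90.8, 94.5, 111 and 103 CPM in the roxadustat libraries, against 452, 423, 350 and 364 CPM in the control libraries (3.98-fold lower), while H2-K1, a class I heavy chain with close paralogs, was 3.35-fold higher. H2-Ab1, a class II beta chain (chromosome 17, 34257689 to 34269419), was at 21.6, 20, 23 and 22.4 CPM in the roxadustat libraries and had 0 counts in all control libraries, at least 430-fold higher against 3 counts over the group. Its partner chain H2-Aa had 2 counts over the roxadustat and 0 over the control libraries, H2-Eb1 57 and 25, and the invariant chain Cd74 6 and 3, none of them called. H2-DMb1, a class II loading factor, was 1.81-fold higher.

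Among chemokines and cytokines 16 of 31 were lower and 7 higher. Ccl9, a chemokine of myeloid cells, was 93.1-fold lower, and Osmr, the oncostatin M receptor, 3.19-fold. Cxcl1, a neutrophil chemokine, was 6.86-fold, Il34, a ligand of the macrophage growth factor receptor made by tubule cells, 6.41-fold and Lif, an interleukin-6 family cytokine, 3.24-fold higher. Stromal complement genes were lower for 9 of 15. C1s1, a protease of the classical pathway that shares 18.4% of its exon bases with another gene, was 24.1-fold lower. Cfi, factor I, was 12.3-fold and Masp1 3.87-fold higher.

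Growth factor genes did not move as 1 block, with 19 of 39 higher (48.7%, against 30%) and 16 lower (41%, against 32.9%). Fgf1, a growth factor of tubule epithelium, was at 399, 375, 409 and 402 CPM in the roxadustat libraries, against 14.1, 17.2, 15.6 and 14.3 CPM in the control libraries (4.69 ± 0.07, adjusted p = 1.25e-27). Erbb4, a receptor of neuregulin and Hbegf, was 66.8-fold, Hbegf itself 10.2-fold and Met, the receptor of hepatocyte growth factor, 9.31-fold higher. Among insulin-like growth factor binding proteins, Igfbp5 was 33.9-fold higher at 305 ± 40.9 CPM with roxadustat, against 9.07 ± 1.65 CPM in the control cells. Igfbp3 was 23.9-fold lower at 89.1 ± 4.59 CPM with roxadustat, against 2130 ± 71.5 CPM in the control cells. Ptn, pleiotrophin, was 133-fold lower.

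VEGF and endothelin genes also parted by member, 9 higher (42.9%, against 30%) and 11 lower (52.4%, against 32.9%) of 21. Vegfd, a lymphatic growth factor, was at 5.71, 5.22, 6.46 and 4.13 CPM in the roxadustat libraries, against 116, 115, 134 and 140 CPM in the control libraries (24.1-fold lower), opposite to Vegfa. Nrp1, the VEGF and semaphorin coreceptor, was 3.37-fold higher and Flt1, a decoy receptor, 3.54-fold lower. Edn1, endothelin-1, was at 35, 32.9, 33.4 and 34.7 CPM in the roxadustat libraries, against 2.33, 2.76, 2.79 and 2.81 CPM in the control libraries (12.7-fold), while its receptor gene Ednra was 18.4-fold lower at 2.38 ± 0.155 CPM with roxadustat, against 43.7 ± 6.37 CPM in the control cells. Adora2b, an adenosine receptor and a HIF target in other cells, was 7.15-fold lower, whereas Nt5e, which makes its ligand, was higher. Ace, the angiotensin-converting enzyme, was at 0.302 ± 0.165 CPM with roxadustat, against 15.7 ± 2.23 CPM in the control cells.

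In TGF-beta and BMP signalling, 14 of 36 were higher (38.9%, against 30% of all genes) and 20 lower (55.6%, against 32.9%). Gdf15, a stress cytokine, was at 399, 431, 420 and 429 CPM in the roxadustat libraries, against 16.5, 17.8, 14.6 and 16.2 CPM in the control libraries (25.7-fold, adjusted p = 2.47e-26). Inhbb, an activin subunit, was 32.9-fold and the coreceptor Tgfbr3 8.22-fold lower, and Bmp6 and its target Id2 were 8.29- and 7.12-fold higher. In Wnt signalling, 14 of 37 were higher (37.8%) and 17 lower (45.9%). Wnt7b, a ligand of the collecting duct epithelium, was 37.9-fold and Wnt5a 4.87-fold higher, and the antagonist Sfrp1 was 118-fold and the receptors Ror1 and Fzd2 6.56- and 3.96-fold lower. Among Notch and guidance genes, Dll4, a Notch ligand, was at 23.1, 20.5, 20.6 and 20.4 CPM in the roxadustat libraries, against 0.123, 0, 0.0799 and 0.0703 CPM in the control libraries. Jag1 was 5.63-fold, Sema3c 15-fold and Epha2 7.35-fold higher, and Ephb2 was 15.5-fold lower.

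Hox genes changed in both directions. Hoxb6, Hoxb8 and Hoxb9 were 4.25-, 8.32- and 5.02-fold and Hoxa9 3.77-fold higher, and Hoxa2, Hoxc6, Hoxc8 and Hoxc9 were 2.68-, 2.82-, 4.18- and 1.99-fold lower. Over the list, 16 of 30 were higher (53.3%, against 30% of all genes) and 8 lower (26.7%, against 32.9%). Of 17 imprinted growth genes 14 were lower, among them the maternally expressed noncoding genes Rian (32.1-fold) and Mirg (31.9-fold) on chromosome 12, the growth inhibitor Cdkn1c (23.1-fold, with 30.7% of its exon bases shared) and Grb10 (3.02-fold). Peg3 was 3.3-fold higher.

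Replication and mitosis genes were close between the groups at day 21. Of 40, 18 were lower and 4 higher with a median of -0.27, and 10 and 11 with scaling by library size alone, so no direction is given for the list. Mki67 was at 25.1, 22, 23.7 and 22.7 CPM in the roxadustat libraries and 31.4, 28.1, 32.6 and 34.2 CPM in the control libraries and was not called (adjusted p = 0.0747), although the libraries did not overlap. Mcm6, part of the replicative helicase, was 2.05-fold and Rrm1, which makes deoxynucleotides, 3.86-fold lower, Ccne1, cyclin E, 2.58-fold lower, and Anln, anillin of the dividing furrow, 2.35-fold higher. Among 24 cell cycle inhibitors and p53 targets, 9 were higher and 9 lower (37.5% each, against 30% and 32.9% of all genes). With library size alone 14 were higher and 6 lower. Cdkn2a, which encodes p16 and p19, was 2.15-fold lower at 110 ± 5.19 CPM with roxadustat, against 236 ± 18.8 CPM in the control cells. Cdkn1b was 1.89-fold lower, and Perp, a p53 target and junction protein, was 3.82-fold higher.

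Antioxidant genes under the factor NRF2 were higher for 20 of 28 and lower for 6, with a median of 1.05. Gclm, a subunit of the enzyme that starts glutathione synthesis, was at 495, 502, 486 and 481 CPM in the roxadustat libraries, against 53.7, 55.3, 60.5 and 58.4 CPM in the control libraries (8.63-fold, adjusted p = 1.13e-23). The catalytic subunit Gclc was 6.45-fold, the cystine importer Slc7a11 14.2-fold and thioredoxin reductase Txnrd1 3.87-fold higher, and Gstm2, a glutathione transferase, was 7.8-fold lower. Of 30 genes of amino acid stress and protein folding 16 were higher and 8 lower, and 19 and 4 with library size alone. Chac1, which breaks down glutathione, was 4.08-fold higher and Ddit3 (CHOP) 1.85-fold lower. Among immediate early genes Atf3 was 8.38-fold, Dusp6, a brake of ERK signalling, 7.26-fold and Ier3 5.11-fold higher, and Nr4a1 and Klf4 were 5.3- and 2.93-fold lower.

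Cholesterol genes were lower than in the control cells as a list, with 23 of 27 lower (85.2%, against 32.9%), 2 higher and a median of -1.02. With library size alone 4 were higher and 20 lower. Hmgcs1, an early enzyme of the pathway, was at 107, 113, 100 and 111 CPM in the roxadustat libraries, against 290, 271, 260 and 264 CPM in the control libraries (2.51-fold, adjusted p = 4.93e-16). Insig1, which holds back the sterol sensor, was 4.03-fold, Mvd 2.67-fold and the cholesterol exporter Abca1 4.1-fold lower. Fatty acid genes had 14 higher (42.4%, against 30%) and 15 lower (45.5%, against 32.9%) of 33. With library size alone 19 were higher and 9 lower. The lipid droplet coat gene Plin2 was 4.1-fold, Hilpda, a HIF target that blocks lipolysis, 3.66-fold and Acly 2.08-fold higher, and Cpt1a, the gate of fatty acid oxidation, was 1.84-fold lower.

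In iron handling, 7 genes were higher (36.8%, against 30% of all genes) and 8 lower (42.1%, against 32.9%) of 19. With library size alone 13 were higher and 4 lower. Cp, the ferroxidase ceruloplasmin, was at 1986, 2226, 2080 and 2062 CPM in the roxadustat libraries, against 68.7, 66, 59 and 62.5 CPM in the control libraries (32.6-fold, adjusted p = 1.87e-27). Tfrc, the transferrin receptor, was 7.83-fold and the iron exporter Slc40a1 2.34-fold higher, and the ferrireductase Steap3 was 23.1-fold lower. Aldh1a2, which makes retinoic acid, was at 208, 226, 212 and 213 CPM in the roxadustat libraries, against 8.41, 12.7, 9.1 and 8.85 CPM in the control libraries. Ptgis, prostacyclin synthase, was 9.09-fold lower.

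**Figure D4:**
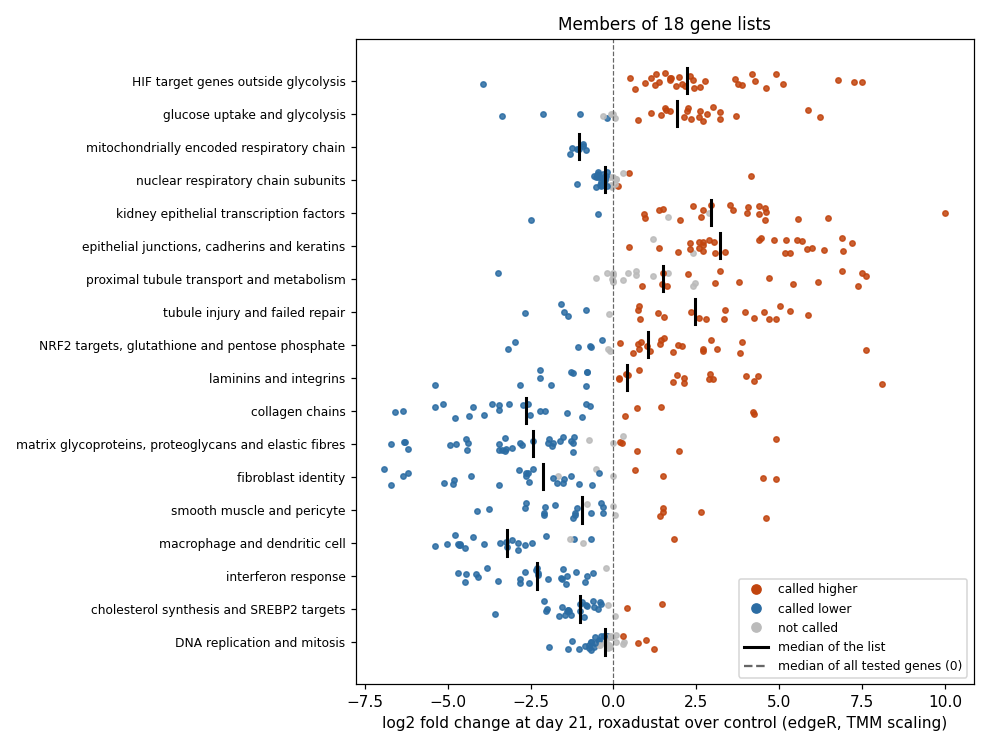
Log2 fold changes at day 21, roxadustat over control, of the tested members of 18 gene lists, with red points called higher, blue points called lower, grey points not called and black bars at the list medians. HIF targets (median 2.23), epithelial transcription factors (2.94) and junction genes (3.21) lie right of the median of all genes at 0, and collagen chains (-2.65), macrophage genes (-3.21) and interferon genes (-2.29) lie left of it.

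The difference at day 21 was set against that at day 7, which rests on 4 other roxadustat and 4 other control libraries. At day 7, 47.7% of genes were called, 24.1% higher and 23.6% lower. Called higher at both times were 2950 genes and lower at both 2937, while 465 were higher at day 21 and lower at day 7, and 592 the reverse. The change in the effect between the times was called for 44.7% of genes, 20.9% toward a higher and 23.8% toward a lower value at day 21. With scaling by library size alone these were 6504 and 2501 genes, against 3919 and 4463 with TMM.

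Of the 32 HIF targets 30 were also higher at day 7, with a median of 1.9 at day 7 and 2.23 at day 21. Their sizes were not the same at the 2 times. The change in effect was called for 11 toward a higher and 13 toward a lower value at day 21. Over all genes these shares were 20.9% and 23.8%. Slc16a3 was at 482 CPM with roxadustat, against 3.77 CPM in the control cells at day 7, and the change in its effect was 0.25 (adjusted p = 0.198). For Vegfa the change was -0.03 (adjusted p = 0.791). Pdk1 and Ndufa4l2 had larger effects at day 7 (5.08 and 6.45) than at day 21 (3.87 and 4.59), with called changes of -1.21 and -1.86. Nt5e was the member not called at day 7, at 331 CPM with roxadustat, against 343 CPM in the control cells at day 7, and its change of 4.94 was called (adjusted p = 3.51e-24). Ppp1r3c, a glycogen-targeting subunit, was 4.81 higher on the log2 scale at day 7 and was not called at day 21, at 6.03 ± 0.74 CPM with roxadustat, against 4.84 ± 0.887 CPM in the control cells.

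For epithelial junction genes the effect was higher at day 21 in 24 of 30 members and lower in none. Over all genes these shares were 20.9% and 23.8%. The median of the junction genes was 1.19 at day 7 and 3.21 at day 21. Cdh16 was at 207 CPM with roxadustat, against 84.7 CPM in the control cells at day 7, and at 115 CPM with roxadustat, against 2.82 CPM in the control cells at day 21. Havcr1 was at 906 CPM with roxadustat, against 807 CPM in the control cells at day 7 without a call (adjusted p = 0.486), and at 546 CPM with roxadustat, against 9.26 CPM in the control cells at day 21. In both genes the control level was the one that differed most between the times.

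Stromal genes showed the mirror image. The effect was more negative at day 21 in 23 of 30 fibroblast genes and 19 of 26 collagen chains, against 23.8% of all genes. Lum was at 1.06 CPM with roxadustat, against 0.703 CPM in the control cells at day 7, without a call, and at 5.96 CPM with roxadustat, against 636 CPM in the control cells at day 21. Ccn3 changed sign, with 84 CPM with roxadustat, against 27.2 CPM in the control cells at day 7 and 11.3 CPM with roxadustat, against 910 CPM in the control cells at day 21, a change of -7.94 (adjusted p = 4.29e-24). Igfbp3 likewise was at 306 CPM with roxadustat, against 162 CPM in the control cells at day 7, and 89.1 CPM with roxadustat, against 2130 CPM in the control cells at day 21. Interferon genes had a more negative effect at day 21 in 21 of 26, against the same 23.8%. Macrophage genes changed in either direction in 3 of 24 only, against 44.7% of all genes. Lyz2 was at 6 CPM with roxadustat, against 242 CPM in the control cells already at day 7, and its change of -0.06 was not called (adjusted p = 0.746).

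Replication and mitosis genes gave the opposite order in time. At day 7, 39 of 40 were lower in roxadustat cells with a median of -1.7, against 18 of 40 and -0.27 at day 21. The change was called upward in 37 and downward in 2, against 20.9% and 23.8% of all genes. Mki67 was at 21.9 CPM with roxadustat, against 108 CPM in the control cells at day 7, and at 23.4 CPM with roxadustat, against 31.6 CPM in the control cells at day 21, a change of 1.86 (adjusted p = 3.86e-05). Mcm6 was at 21.7 CPM with roxadustat, against 78.5 CPM in the control cells at day 7. The roxadustat levels of Mki67 were near each other at both times and the control levels were not. Rrm1 went against the list with a change of -1.42.

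**Figure D5:**
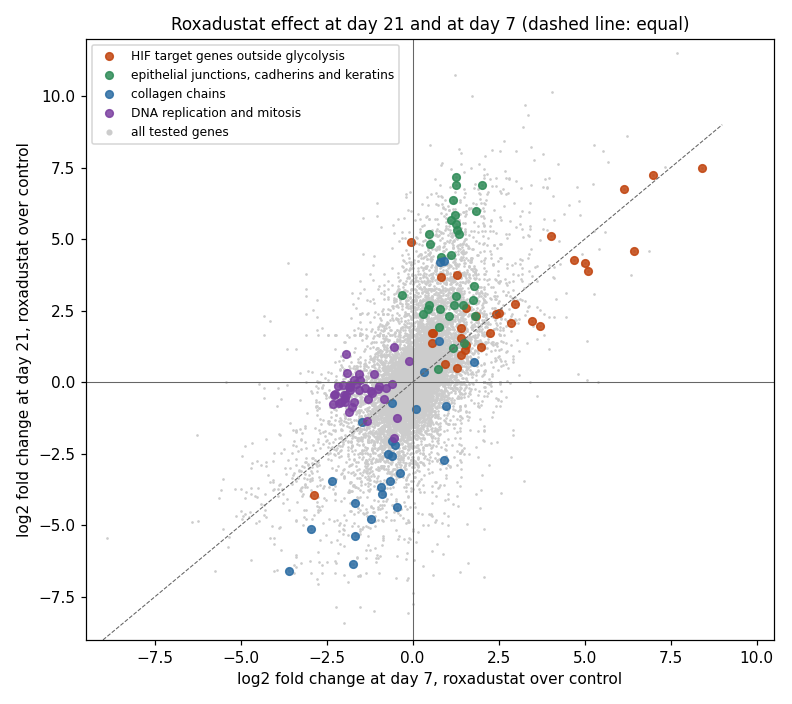
Log2 fold change of each tested gene at day 7 (x axis) and day 21 (y axis), roxadustat over control, with 4 gene lists in colour, all other genes in grey and a dashed line where both are equal. HIF targets lie on both sides of the dashed line (Slc16a3 at 7.00 and 7.25, Nt5e at -0.05 and 4.89), junction genes lie above it (Cdh16 at 1.29 and 5.33), most collagen chains lie below it, and replication genes lie left of 0 at day 7 and mostly near 0 at day 21.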

How the data were processed

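RNA of Sca-1+ mouse kidney cells was sequenced with a non-stranded TruSeq mRNA protocol after Trizol extraction, per the labels' protocols. The deposited files hold counts of reads per gene, made by the authors with STAR 2.5.2a and featureCounts 1.5.0-p1 on mm10, per the submitters' processing notes. The annotation release is not given in the sources used here. Symbols and coordinates come from GENCODE M21 (GRCm38), which matched 47310 of 47729 gene IDs. All 20 libraries entered 1 edgeR 4.0.16 quasi-likelihood fit (R 4.3.3, TMM scaling, 18731 genes past edgeR's expression filter, 6 groups sharing 1 spread), with Benjamini-Hochberg adjustment over all genes. The fit was also run on simulated counts in which few genes differed between groups, with an outcome not reported here. That setting cannot check the scaling of these data, where 62.9% of genes were called. Leaving out each library, other scalings and filters, DESeq2 1.42.0, limma 3.58.1 voom and a replicate block were tried. The comparison and the 48 gene lists were chosen with earlier results of these data known. Named genes are the 12 largest rises and falls at 10 CPM or more without overlap, the 10 largest of each per kb, up to 5 members per list by p and up to 4 against its majority, the 6 strongest differences between the times, and a set of HIF, stromal and tubule genes. Ak4, C1qa, Cd24a, Cd74, Cdh5, Col4a1, Col4a2, Col4a5, Cubn, Cxcl10, Dcn, Fn1, H2-Aa, H2-Eb1, Havcr1, Igfbp5, Isg15, Krt8, Ppp1r3c, Slc22a6, Slc34a1 and Umod were added outside that rule with their values already seen. Floors at 3 counts cover counting error only, while each SE and SD also includes the spread between libraries. Some genes are not reported here.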

Additional observations from a re-analysis of the deposited data

Results flagged for a closer look

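Of 510 sets of 4 libraries checked for the genes named here, 26 (5.1%) held a library set apart from the other 3. The rule sets apart about 1 in 20 sets of normally distributed values, but always a set with counts in 1 library only. The share is therefore no test against chance. Among roxadustat libraries, replicate 1 was set apart for Adamts2 (43.7 CPM), Cped1 (12.2), Dll4 (23.1), Emcn (0.680), Ier3 (102.7) and Slc2a4 (0.0680). Replicate 2, with its low mitochondrial share, was set apart for mt-Cytb (336.2 CPM), Hmox1 (812.9), Grb10 (263.8), Gbe1 (164.9) and Umod (0.111). Replicate 3 was set apart for Mmp23 (16.1 CPM), and replicate 4 for Mirg (1.52). Among control libraries, replicate 1 was set apart for Edn1 (2.33 CPM), Epha2 (25.1) and Erbb4 (1.66). Replicate 2 was set apart for Aldh1a2 (12.7 CPM), Crisp1 (0.0600), Epcam (0.0600), Epha7 (15.6) and Ltbp1 (269.1), replicate 3 for Cd24a (8.86), Cd74 (0.240) and Txnrd1 (253), and replicate 4 for Sfrp1 (294.3) and Umod (0.0703). The values of Crisp1, Epcam, Slc2a4, Umod and Cd74 rest on 1 to 3 counts in the group.

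Other genes were flagged for opposite calls at the 2 times with a called difference, or as 1 of the 6 strongest differences. By edgeR's test, the difference between day 21 and day 7 was called for 44.7% of all genes, so a call alone does not set a gene apart. In the values that follow, a positive one means a higher roxadustat effect at day 21 than at day 7, on the log2 scale. Among matrix and stromal genes the differences were -7.94 for Ccn3, -5.76 for Cemip, -5.52 for Cped1, -5.49 for Igfbp3 and -1.79 for Col4a5. Among signalling genes they were -5.06 for Vegfd, -3.13 for Adora2b, -1.89 for Osmr and -2.32 for Klf4. For the cell cycle inhibitors they were -1.28 for Cdkn2a and -1.18 for Cdkn1b, and for anillin (Anln) 1.76. Upward differences in tubule and surface genes were 6.62 for Slc6a18, 4.94 for Nt5e, 4.03 for the lipid exporter Spns2, 3.37 for Cdh6, 3.18 for the peptidase Mme, 2.54 for Itga6 and 1.88 for the amino acid transporter Slc7a5. They were 3.77 for Hbegf, 3.49 for Sim1, 3.14 for the guidance receptor Epha7, 2.73 for Nes and 1.71 for Foxd1. Of the 255 named genes tested, 21 were called in opposite directions at the 2 times. Among all 18731 genes tested, 465 were higher at day 21 and lower at day 7, and 592 the reverse.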

How the results depend on the processing

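With library size as the only scaling, day 21 had 9372 higher and 3549 lower genes (72.5% of calls higher, against 47.7% with TMM) and 6504 and 2501 for the difference between the times. Requiring at least 2-fold gave 2916 and 2362 genes at day 21 and 2035 and 1549 for the difference. Among named genes Hif1an reversed, to 0.0146 with library size alone (adjusted p = 0.841). Leaving out 1 library gave 5260 to 5554 higher and 5896 to 6054 lower genes, and 3712 to 3828 and 4284 to 4438 for the difference. DESeq2 gave 5625 higher and 5903 lower, voom 5601 and 6133, upper quartile scaling 6403 and 5495, and no filter 5761 and 6607 of 34124 genes. The replicate numbers did not pair the libraries (correlations of deviations -0.18, 0.03, -0.05 and -0.07, with 1 of 4 libraries closest to its own number). With the replicate block, 4906 were higher and 5026 lower, against 5178 and 5307 in the same 8 libraries without it. With library size alone Cox4i1, Tet3, Vim and Wt1 lost their calls too. Cxcr4, Slc2a4 and Tfap2a fell below the filter in the 8 libraries alone, with or without the block, which left the HIF targets with 0 lower. A filter at 1 CPM also removed Tfap2a, and DESeq2 gave Kap no adjusted p. Depth limits genes of a few counts, such as Cxcr4, Slc2a4 and Umod.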
